A study of Homo sapiens with 6 samples.

Results

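The genes described here are 38 genes of sterol and fatty acid synthesis, of 62703 genes counted in 22Rv1, a cell line from human prostate cancer. They were chosen by name for their place in these pathways, though with earlier results of these data known. They comprised 19 genes of the sterol branch, 14 of the fatty acid branch and 5 regulators shared by both. All 38 passed the filter on low counts and were among the 17901 genes tested. Cells grown in RPMI-1640 medium with fetal bovine serum received 25 pmol of a non-targeting siRNA pool (siCtrl, 3 libraries) or a pool against MED12 (siMED12, 3 libraries) by lipid transfection, and polyadenylated RNA was taken 3 days later. MED12 is a subunit of the kinase module of Mediator, the complex that connects transcription factors with RNA polymerase II, and the study asked what its knockdown does in cells that resist the androgen receptor inhibitor enzalutamide. All libraries came from 1 cell line, and no untransfected cells were part of the comparison. The labels do not say whether libraries of a group came from separate cultures. The study states in general that its experiments had at least 3 biological replicates, apart from exceptions it names. Without pairing, the p-values here measure the spread between these libraries. Where libraries of the same replicate number are paired, they measure only the spread left after differences between replicate numbers are removed.

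Cholesterol is built from acetyl-CoA through mevalonate and squalene, and fatty acids are built from the same acetyl-CoA by carboxylation, chain synthesis, elongation and desaturation. Transcription of both routes is driven by the sterol regulatory element-binding proteins (SREBPs), which are held in the endoplasmic reticulum with SCAP by the INSIG proteins while sterols are plentiful and are cut free in the Golgi when sterols fall. In prostate epithelium and prostate cancer, synthesis of lipids is known as a process that androgens stimulate, and fatty acid synthase is abundant in these tumours.

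The promoter letters of 5 members are given first. All 5 carry a match to the general CCAAT box, and of these SREBF2 alone carries a match to the sterol element in the printed stretch. MSMO1 and MVD are the sterol branch members that rose, INSIG1 and SCD are members that fell, each in the test that pairs libraries of the same replicate number (the blocked fit), and SREBF2 encodes the sterol SREBP itself. The letters are RefSeq's for GRCh38.p14, written 5′ to 3′ along the gene's own strand and ending before the first annotated exon, with the first transcribed base counted as 1. Capitals mark matches on either strand to the CCAAT box, which reads ATTGG on the other strand, and to the sterol element TCACNCCAC.
MSMO1, chr4:165327419-165327666, plus strand: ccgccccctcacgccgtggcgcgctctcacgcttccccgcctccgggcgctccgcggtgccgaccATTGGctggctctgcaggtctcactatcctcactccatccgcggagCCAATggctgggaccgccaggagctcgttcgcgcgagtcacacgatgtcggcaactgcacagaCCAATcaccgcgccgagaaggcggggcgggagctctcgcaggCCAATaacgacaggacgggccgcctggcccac
MVD, chr16:88663162-88663341, minus strand: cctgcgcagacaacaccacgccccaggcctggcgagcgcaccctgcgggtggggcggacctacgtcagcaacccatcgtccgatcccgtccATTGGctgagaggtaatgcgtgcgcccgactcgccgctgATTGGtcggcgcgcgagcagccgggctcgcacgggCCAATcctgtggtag
INSIG1, chr7:155297628-155297775, plus strand: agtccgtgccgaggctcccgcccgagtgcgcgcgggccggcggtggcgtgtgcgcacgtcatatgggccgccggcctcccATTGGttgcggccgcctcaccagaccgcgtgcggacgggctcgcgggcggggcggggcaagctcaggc
SCD, chr10:100346983-100347232, plus strand: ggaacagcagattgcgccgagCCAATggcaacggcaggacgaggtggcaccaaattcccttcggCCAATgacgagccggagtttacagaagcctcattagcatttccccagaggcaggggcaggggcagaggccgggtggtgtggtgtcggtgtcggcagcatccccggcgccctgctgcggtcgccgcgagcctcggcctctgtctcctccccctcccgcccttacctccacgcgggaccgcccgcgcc
SREBF2, chr22:41832855-41833104, plus strand: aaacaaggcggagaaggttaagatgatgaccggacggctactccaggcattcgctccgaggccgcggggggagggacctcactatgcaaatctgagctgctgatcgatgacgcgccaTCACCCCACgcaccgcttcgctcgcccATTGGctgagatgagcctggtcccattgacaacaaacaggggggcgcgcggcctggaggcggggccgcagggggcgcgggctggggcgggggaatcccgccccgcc

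Windows from 250 bases before to 50 bases after the start were at hand for 34 of the 38 genes, 51 windows in all, and not for ACAT2, FDFT1, SQLE and FASN. CCAAT lay in 58.8% of the member windows and in 34.6% of all 35116 promoter windows of the same length. The sterol element TCACNCCAC lay in windows of 2 members, SREBF2 and ACSL1, or 3.92% of member windows against 1.13% of all windows. In SREBF2 it covered bases -133 to -125. The E-box CACGTG, a sequence that SREBP1 and other basic helix-loop-helix factors bind, lay in windows of 5 members (ELOVL5, INSIG1, LSS, SC5D and SCAP). It was found in 11.8% of member windows against 7.26% of all. Some windows of a gene overlap, so that the shares of windows count some matches more than once. The E-box of SC5D and the CCAAT matches of SC5D and ACLY are each counted in both windows of the gene. The CCAAT and TCACNCCAC matches printed above do not overlap each other. Members that rose and members that fell both carried CCAAT: MSMO1 had 4 matches and MVD 3, and SCD had 2. These matches are letters only and say nothing of occupancy in these cells.

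**Figure D1:**
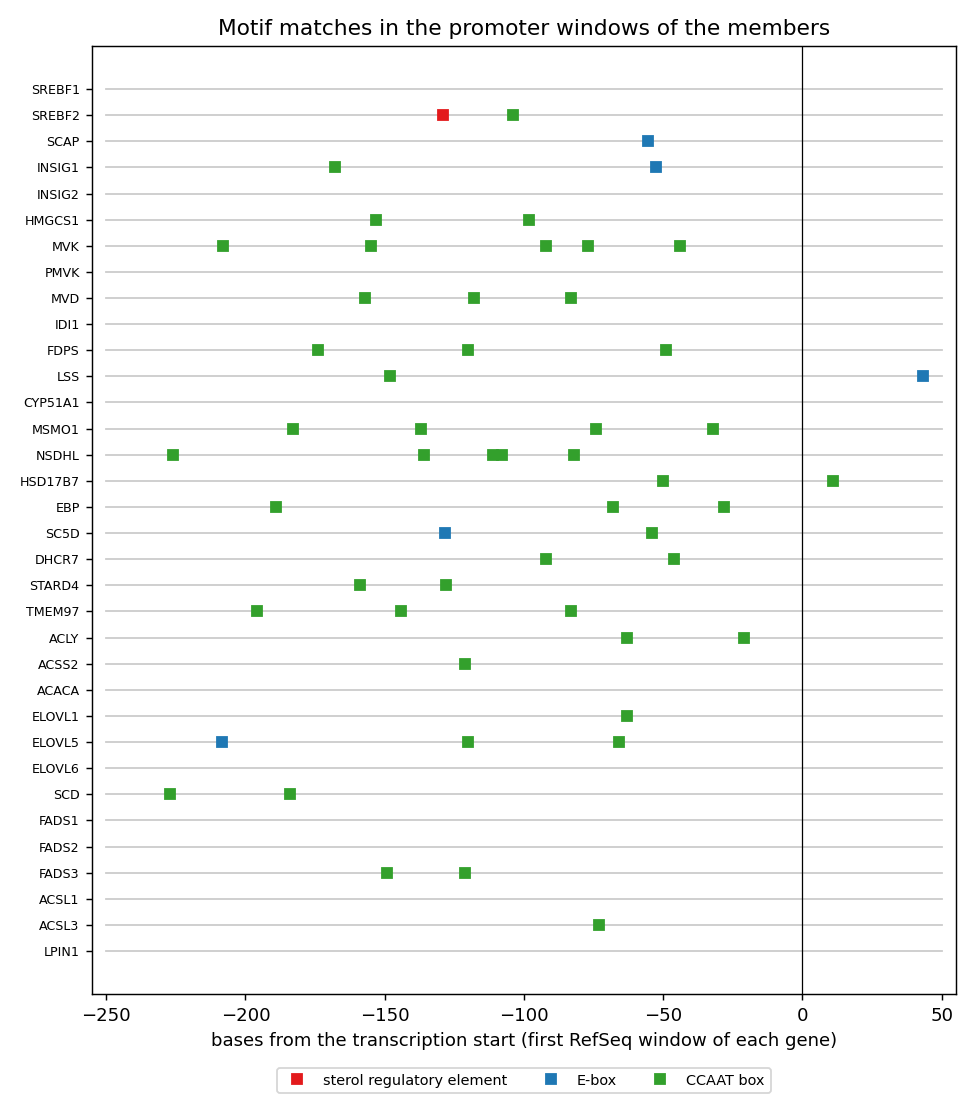
Positions of motif matches in the first listed promoter window of each member with an entry, in bases from the transcription start, with 1 row per gene and a colour for each motif. Marks for CCAAT stand upstream of the start in most rows, and the sterol element stands in the SREBF2 row; matches that lie in a gene's other windows are not drawn.

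The libraries were alike in depth, with 16136699 to 17012788 counts assigned to genes. MED12 fell from 67.8, 77.7 and 72.6 CPM (counts scaled to library size with TMM factors) in siCtrl replicates 1 to 3 to 23.9, 15.0 and 30.1 in siMED12, a log2 fold change of -1.66 ± 0.23 (SE) with an adjusted p of 0.0314. The share of mitochondrially encoded counts was 4.43%, 6.31% and 10.0% in siCtrl replicates 1 to 3 and 4.79%, 6.03% and 10.1% in siMED12, so that it followed the replicate number in both groups. All 10 prostate luminal markers passed the count filter, with summed levels of 3551 to 3819 CPM in siCtrl and 3027 to 3280 CPM in siMED12. Summed markers of adipocytes stayed between 0.0585 and 0.178 CPM in every library, with ADIPOQ, LEP and CIDEC at 0, immune markers at or below 1.90 CPM and endothelial markers at or below 0.122 CPM. The 5 fibroblast markers summed to at most 39.0 CPM in siCtrl and 41.8 CPM in siMED12. The part of any of these in the results below was not tested.

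With replicate numbers paired, MED12 knockdown lowered the fatty acid synthase FASN, the desaturases FADS1, FADS2 and SCD, the elongase ELOVL5, the acyl-CoA synthetase ACSL3, the regulators SREBF1 and INSIG1 and 7 sterol branch genes, and raised the sterol enzymes MSMO1 and MVD, the elongase ELOVL6 and the regulators SCAP and INSIG2. These differences were modest, between -0.51 and 0.43 on the log2 scale for all 38 genes. In the test without pairing, 1 of 38 members fell (FADS1) and 0 rose, where 0.413% of all tested genes fell and 0.151% rose. At an unadjusted p below 0.05, 9 members were lower and 2 higher (23.7% and 5.26%), against 7.93% and 7.65% of all tested genes. Among genes with a mean of at least 50 CPM these shares were 13.2% and 8.19%. Libraries of the same number deviated together from their group means, so the number was also entered as a block. In that blocked fit 15 members fell and 5 rose, or 39.5% and 13.2%, against 16.2% and 17.1% of all tested genes. Most members are strongly expressed, and among genes with a mean of at least 50 CPM the blocked fit called 29.1% lower and 24.7% higher, against 43.8% and 12.5% of the 32 members at that level. Without regard to any model, the 3 siMED12 values lay below all 3 siCtrl values in 11 members and above them in 3, where 10.9% and 11.2% of all tested genes did so, and 16.1% and 11.3% of those with a mean of at least 50 CPM. The median log2 fold change of the members was -0.08, against 0.02 for all tested genes, and 25 of 38 were below 0. In 23 members (60.5%) siMED12 was lower in all 3 pairs and in 10 (26.3%) higher, against 27.0% and 30.6% of all tested genes. Of genes with a mean of at least 50 CPM, 38.3% were lower and 34.6% higher in all pairs. With the loess correction for GC content and length added to the block, 17 members were called lower and 4 higher, against 17.8% and 14.8% of all genes. Of the 5192 genes with a mean of at least 50 CPM, that corrected fit called 1743 lower and 1042 higher. In bulk RNA, fewer cells that express a gene cannot be told apart from less RNA of it per cell.

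**Figure D2:**
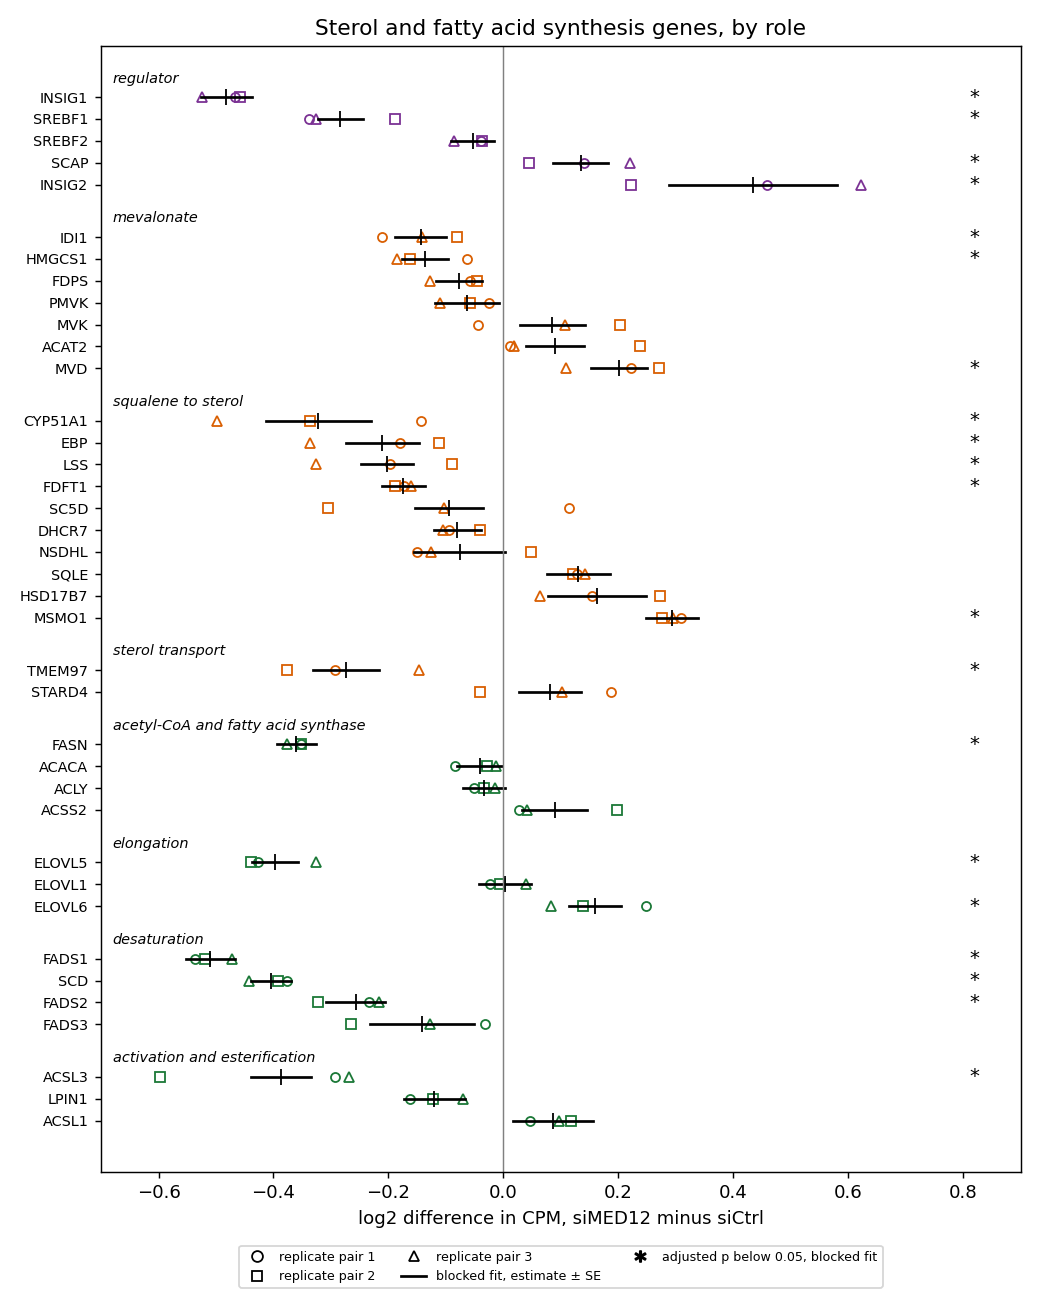
Log2 difference in CPM between siMED12 and siCtrl (horizontal axis) for each of the 38 genes, grouped by role, with open marks for the 3 replicate pairs, a tick and bar for the estimate ± SE of the blocked fit, and an asterisk where the adjusted p of that fit was below 0.05. FADS1, INSIG1, SCD, ELOVL5 and FASN stand left of 0 in all pairs, and MSMO1, MVD and INSIG2 stand right of 0 in all pairs.

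The desaturases, which place double bonds into fatty acyl chains, were the role with the lowest median, -0.33 on the log2 fold change scale, and all 4 were lower in every pair. FADS1, the delta-5 desaturase of polyunsaturated fatty acid synthesis (chromosome 11, 61799627 to 61829318, minus strand), was at 239.8, 255 and 241 CPM in siCtrl and at 165, 178 and 174 CPM in siMED12. No siMED12 library reached the lowest siCtrl library, and the pairs differed by -31.1%, -30.2% and -27.9%. Its log2 fold change came to -0.51 ± 0.08 (SE), with adjusted p = 0.0442 unblocked and 1.43e-12 blocked. When any 1 of the 6 libraries was left out, FADS1 stayed between -0.55 and -0.48, and its adjusted p lay between 0.0661 and 0.232, so that the unblocked call was lost in each of these 6 fits.

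SCD, the delta-9 desaturase that makes oleate and palmitoleate (chromosome 10, 100347233 to 100364826, plus strand), was at 1235, 1300.3 and 1030.1 CPM in siCtrl and at 951, 991 and 758 CPM in siMED12. The groups did not overlap, and replicate 3 was the lowest of its group on both sides. Its log2 fold change was -0.40 ± 0.13 (SE), which did not pass without the block (adjusted p = 0.197) and passed with it (4.76e-12). FADS2, the delta-6 desaturase whose exons share 490 bases with those of FADS1 on the opposite strand, went from 109, 105 and 102 CPM to 92.8, 83.9 and 87.8 CPM. Its adjusted p was 0.202 without the block and 0.000109 with it. FADS3, another gene of the same cluster on chromosome 11, was at 17.3, 20.2 and 33.8 CPM in siCtrl and at 16.9, 16.8 and 30.9 CPM in siMED12. It passed in neither fit (adjusted p = 0.891 and 0.245), and its largest difference was that of replicate 3 from the other replicates.

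The values of the remaining genes in this and the next paragraphs are given after they had been seen. FASN, the fatty acid synthase that assembles palmitate, went from 2156, 2267 and 1799.9 CPM in siCtrl to 1689, 1776 and 1387 CPM in siMED12. It was among the most abundant members per length, at 223 CPM per kilobase of exon in siCtrl beside 227 for SCD and 119.6 for ACLY. The pairs differed by -21.7%, -21.6% and -22.9%, and the log2 fold change of -0.36 ± 0.13 (SE) passed in the blocked fit alone (adjusted p = 0.234 without it, 2.58e-11 with it). The enzymes that supply FASN did not pass in either of these fits. ACLY, which cleaves citrate to acetyl-CoA, had a log2 fold change of -0.03, ACACA, which carboxylates acetyl-CoA, of -0.04, and ACSS2, which makes acetyl-CoA from acetate, of 0.09. After correction for GC content and length within the blocked fit, ACACA was also called lower (-0.12, adjusted p = 0.00724).

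The elongases, which add carbons to finished chains, went in different directions. ELOVL5, which extends polyunsaturated chains, went from 345, 348 and 306 CPM to 257, 257 and 244 CPM, without overlap. The fitted log2 difference was -0.40 ± 0.09 (SE), with adjusted p = 0.0859 unblocked and 2.98e-10 blocked, and the unblocked DESeq2 Wald test called it (adjusted p = 0.00654), beside FADS1 as the other of its 2 members lower and with 0 higher, against 2.75% and 1.85% of all tested genes. ELOVL6, which extends palmitate to stearate, was at 168, 166 and 135 CPM in siCtrl and at 199.9, 183 and 143 CPM in siMED12. It rose in the blocked fit (0.16, adjusted p = 0.00549), and this call was lost with the GC and length correction (0.08, adjusted p = 0.186). ELOVL1, which makes very long saturated chains, had means of 146 ± 5.88 and 147 ± 6.01 CPM (SD, n = 3).

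Among the genes that activate or esterify fatty acids, ACSL3, an acyl-CoA synthetase of the endoplasmic reticulum and lipid droplets, went from 168, 175 and 139.8 CPM to 137, 116 and 116 CPM. The groups did not overlap but nearly touched, and pair 2 differed most, at -33.9%. Its log2 fold change came to -0.39 ± 0.12 (SE), with adjusted p = 0.169 unblocked and 1.24e-07 blocked. ACSL1, another acyl-CoA synthetase, differed by 0.09 and LPIN1, a phosphatidate phosphatase of triglyceride synthesis, by -0.12, and neither passed in these 2 fits. LPIN1 was called lower with the GC and length correction (-0.18, adjusted p = 0.00549).

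**Figure D3:**
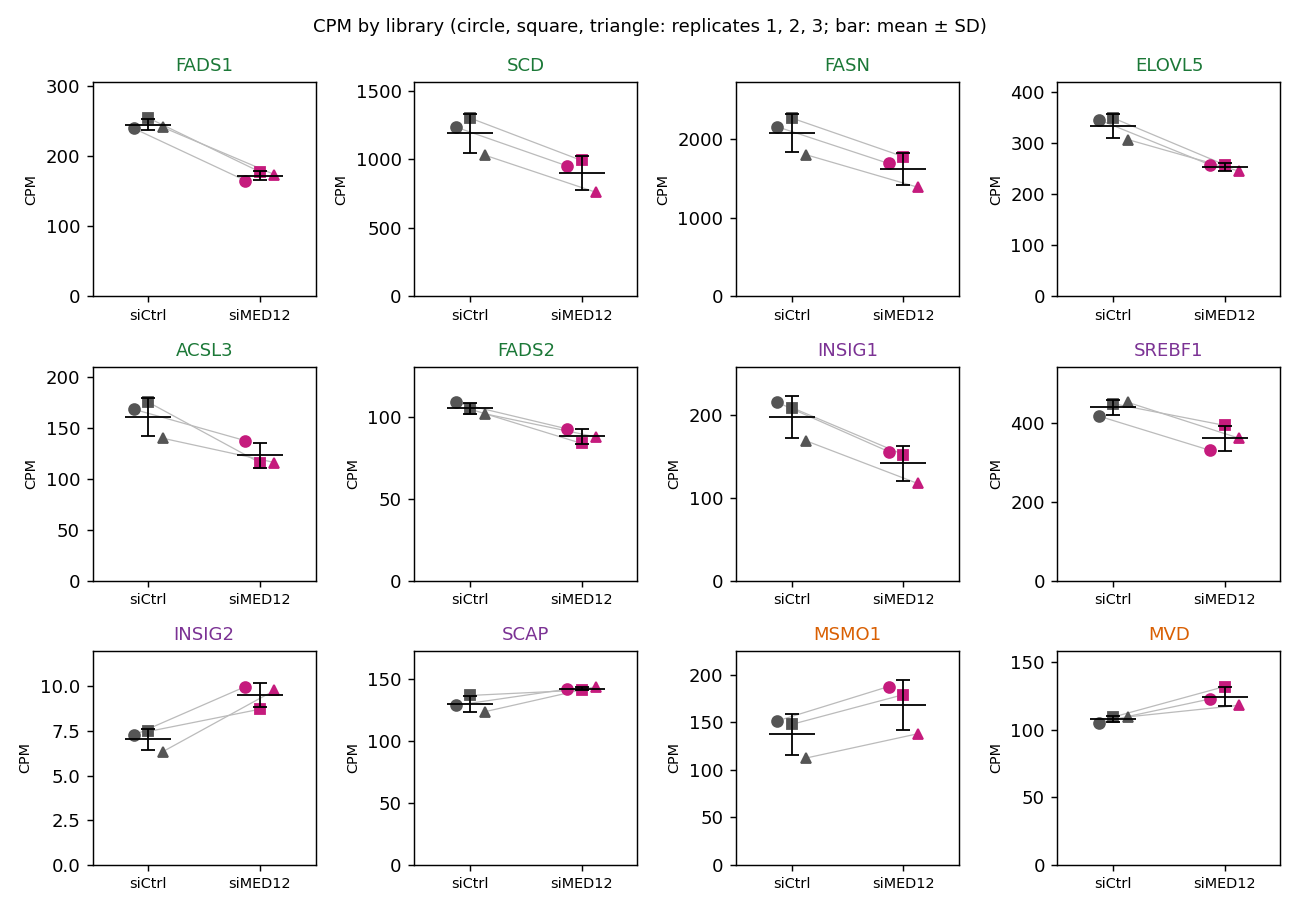
CPM in each of the 6 libraries for 12 members, with a circle, square and triangle for replicates 1, 2 and 3, grey lines joining the same number, and bars for the mean ± SD. The siMED12 points of FADS1, INSIG1, SCD, ELOVL5 and FASN lie below all siCtrl points, and those of INSIG2 lie above them.

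Of the 19 sterol branch members, 7 fell and 2 rose in the blocked fit, or 36.8% and 10.5%, where it called 16.2% of all tested genes lower and 17.1% higher (29.1% and 24.7% at a mean of 50 CPM or more). The share that rose was thus below that of all genes, and 0 members passed without the block. The siMED12 values stood apart from the siCtrl values in 3 members below (FDPS, EBP and TMEM97) and 1 above (MVD), or 15.8% and 5.26%, against 16.1% and 11.3% of all genes at 50 CPM or more. In the mevalonate segment, MVD, the decarboxylase that yields isopentenyl diphosphate, went from 105, 109 and 109.5 CPM to 123, 132 and 118 CPM. The fitted log2 difference was 0.20 ± 0.09 (SE), with adjusted p = 0.307 unblocked and 0.0013 blocked. HMGCS1, the synthase that makes HMG-CoA, went from 355, 355 and 270.1 CPM to 339, 317 and 238 CPM and fell in the blocked fit (-0.14, adjusted p = 0.00715). Annotated exons on the opposite strand share 37.7% of the HMGCS1 exon length, and whether counting used strand was not stated. IDI1, which isomerises the isopentenyl diphosphate that MVD makes, fell by a similar amount in the blocked fit (-0.14, adjusted p = 0.00903). ACAT2, MVK, PMVK and FDPS, the other enzymes from acetoacetyl-CoA to farnesyl diphosphate, lay between -0.08 and 0.09 and passed in neither fit.

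From squalene onward, MSMO1, which removes the methyl groups at carbon 4 of the sterol ring, had the highest fold change of the branch. It went from 151, 148 and 112 CPM to 188, 179 and 138 CPM, and although the groups overlapped because replicate 3 was low in both, the pairs differed by 24.0%, 21.1% and 22.7%. Its log2 fold change was 0.29 ± 0.15 (SE) without the block (adjusted p = 0.411) and 0.29 ± 0.04 with it (adjusted p = 1.7e-06). FDFT1, which joins farnesyl units to squalene, went from 519, 486 and 449 CPM to 461, 426 and 401 CPM and fell in the blocked fit (-0.17, adjusted p = 0.0003). LSS, which closes the sterol ring, fell as well in that fit (-0.20, adjusted p = 0.000411), as did CYP51A1, the lanosterol demethylase (-0.32, adjusted p = 0.00506), and EBP, the sterol isomerase (-0.21, adjusted p = 0.00875). CYP51A1 had 20.5 to 25.6 CPM in its group means, and 2844 bases of its exons are also annotated to another gene model on the same strand. EBP likewise shares 644 exon bases with another annotated gene on its strand, and its call was lost after the GC and length correction (adjusted p = 0.0533). SQLE, the squalene epoxidase, was higher in every pair, by 9.24%, 8.8% and 10.4%, and did not pass in the blocked fit (adjusted p = 0.063). HSD17B7 and NSDHL, which act in removing the methyl groups at carbon 4, and SC5D and DHCR7, which place and reduce double bonds at the end of the route, lay between -0.09 and 0.16 and did not pass in these 2 fits, while SC5D was called lower with the GC and length correction (-0.19, adjusted p = 0.00876).

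TMEM97, a sterol-responsive membrane protein known as the sigma-2 receptor, went from 76.2, 87.9 and 71.3 CPM to 62.2, 67.7 and 64.4 CPM. The groups did not overlap, and the log2 fold change of -0.28 ± 0.11 (SE) passed in the blocked fit (adjusted p = 0.265 without it, 0.000239 with it). STARD4, a soluble cholesterol carrier, had means of 90.5 ± 10.2 and 95.5 ± 3.00 CPM (SD, n = 3) and passed in neither.

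The 5 regulators were split. INSIG1, the retention protein that SREBPs themselves induce (chromosome 7, 155297776 to 155310235, plus strand), was at 215, 209 and 169 CPM in siCtrl and at 156, 152 and 117 CPM in siMED12. Every siMED12 library was below every siCtrl library, and the pairs differed by -27.7%, -27.2% and -30.5%. Its log2 fold change came to -0.48 ± 0.14 (SE), with adjusted p = 0.156 unblocked and 2.01e-11 blocked. INSIG2, its paralog, which is less dependent on SREBPs (chromosome 2, 118088452 to 118110997, plus strand), was at 7.26, 7.46 and 6.34 CPM in siCtrl and at 9.98, 8.71 and 9.76 CPM in siMED12, on 104 to 168 counts per library. It rose in the blocked fit (0.43 ± 0.15, adjusted p = 0.0187) and not without it (adjusted p = 0.285). That call was lost when pair 1 (adjusted p = 0.109) or pair 3 (0.143) was left out. Per kilobase of exon in siCtrl, INSIG1 stood at 54.1 CPM and INSIG2 at 1.78 CPM.

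SREBF1, which encodes the SREBP most tied to fatty acid genes, went from 419, 450.2 and 454 CPM to 331, 395 and 362 CPM, without overlap. It fell in the blocked fit (-0.28 ± 0.04, adjusted p = 2.79e-07) and did not pass without the block (adjusted p = 0.199). SREBF2, which encodes the SREBP most tied to sterol genes, went from 497, 557 and 487 CPM to 484, 543 and 459 CPM, and passed in neither fit (-0.05, adjusted p = 0.867 and 0.291). SCAP, their escort protein, went from 129, 137 and 124 CPM to 142, 141 and 144 CPM and rose in the blocked fit alone (0.13, adjusted p = 0.496 without it and 0.0252 with it), a call lost without pair 1 (adjusted p = 0.181) or pair 3 (0.248). Ratios within a library, picked after the values were seen, compared partner genes without any scaling between libraries. The log2 ratio of INSIG1 to INSIG2 counts was 4.81 ± 0.08 in siCtrl and 3.89 ± 0.28 in siMED12 (SD, n = 3), and that of SREBF1 to SREBF2 was -0.22 ± 0.11 and -0.45 ± 0.10. In both ratios the groups did not overlap, which for 3 against 3 libraries gives the smallest p that an exact two-sided permutation test allows, 0.1 (0.2 after adjustment over 4 ratios). The ratio of FADS1 to FADS3 differed by -0.37 and that of ACACA to ACACB, the mitochondrial acetyl-CoA carboxylase, by -0.55. Both overlapped between groups (exact permutation p = 0.5 and 0.2), in a test that does not use the pairing. ACACA to ACACB went from 3.26, 3.64 and 3.06 in siCtrl replicates 1 to 3 to 2.74, 3.08 and 2.49 in siMED12. FADS1 to FADS3 went from 3.79, 3.65 and 2.84 to 3.29, 3.40 and 2.49. Both ratios were thus lower in siMED12 in every pair.

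Set side by side, the 14 fatty acid members had a median log2 fold change of -0.13 and the 19 sterol members of -0.08. The fatty acid median was the lower one in pairs 1 and 2, by 0.06 and 0.15, and the sterol median was the lower one in pair 3, by 0.01, so that the order of the branches was not the same in every pair. With the correction for GC content and length in the blocked fit, the sterol median was higher than the fatty acid median by 0.12. In the blocked fit 6 of 14 fatty acid members fell (42.9%) and 1 rose (7.14%), beside the sterol shares of 36.8% and 10.5% given above. In both branches the lower share was above and the higher share below those of all tested genes (16.2% and 17.1%). Of genes with a mean of at least 50 CPM, that fit called 29.1% lower and 24.7% higher. The sterol share of 36.8% lower stood closer to that level than to the share of all tested genes. The siMED12 values lay below all siCtrl values in 6 of the 14 fatty acid members (42.9%) and in 3 of the 19 sterol members (15.8%), where 10.9% of all tested genes and 16.1% of those at 50 CPM or more did so. The difference between the branches was not tested, since their genes are not replicates of each other.

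**Figure D4:**
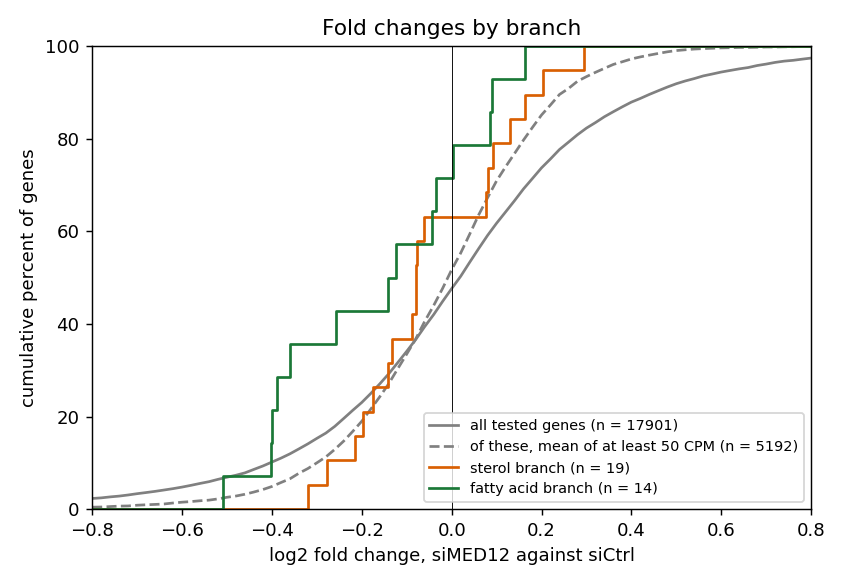
Cumulative percent of genes (vertical axis) at or below each log2 fold change of the unblocked fit (horizontal axis, drawn from -0.8 to 0.8) for the 19 sterol members, the 14 fatty acid members, all 17901 tested genes and the 5192 of these with a mean of at least 50 CPM. The fatty acid line lies left of the others over most of the range, and both member lines cross 50% below 0.

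Replicates differed from each other as much as the treatment groups did for many members. In 16 of 38 the difference between replicates 3 and 1 exceeded the difference between siMED12 and siCtrl in both groups. The lowest value of both groups was that of replicate 3 in 21 members, or 55.3%, against 29.4% of all tested genes and 46.5% of those with a mean of at least 50 CPM. MVK, the mevalonate kinase, was lower in replicate 3 than in replicate 1 by -0.72 in siCtrl and by -0.56 in siMED12 (log2), and FADS3 was higher by 0.96 and 0.87. The mitochondrial share of counts moved with the same replicate numbers, and its part in these values was not tested. The 11 members that fell in all 7 blocked fits run were SREBF1, INSIG1, FDFT1, LSS, TMEM97, FASN, ELOVL5, SCD, FADS1, FADS2 and ACSL3, and MSMO1 rose in all 7. Another 11 members passed in none of them. Beside INSIG2 and SCAP, 6 members called in the blocked fit lost the call when a pair was left out. These were IDI1 (adjusted p = 0.0913) and ELOVL6 (0.258) without pair 1, MVD (0.0542) without pair 2, and HMGCS1 (0.0585), CYP51A1 (0.0852) and EBP (0.183) without pair 3.

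**Figure D5:**
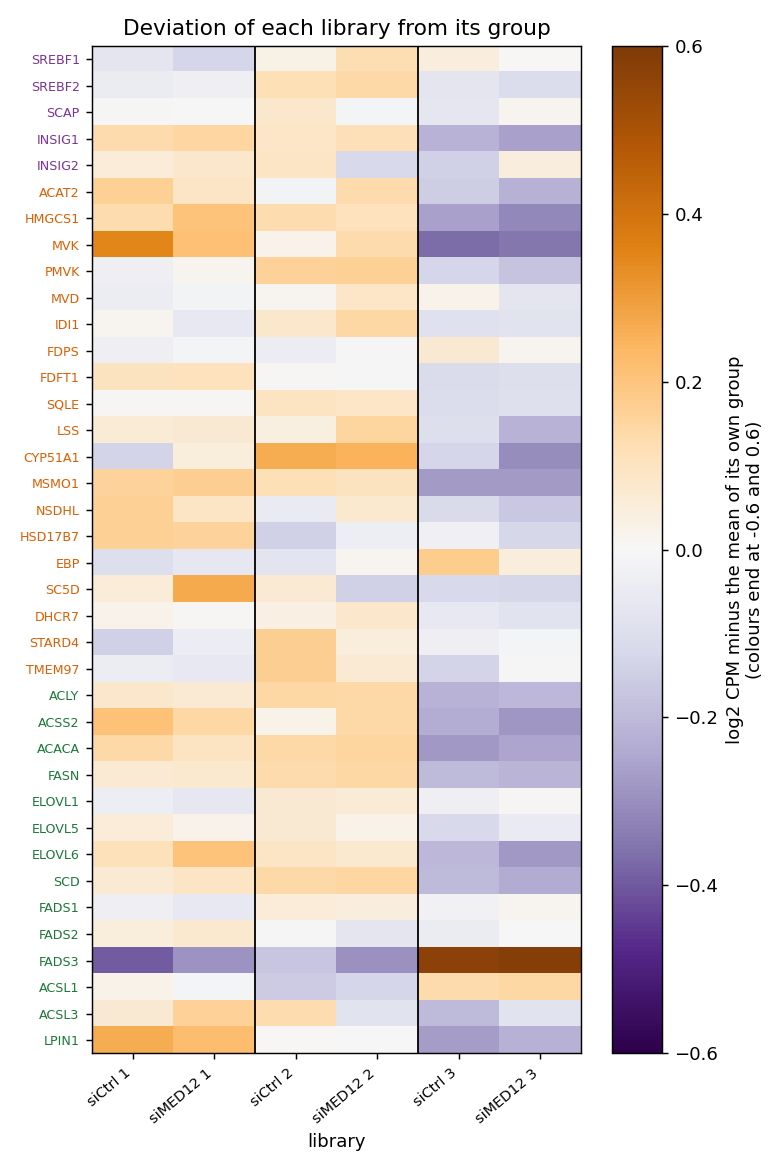
Deviation of log2 CPM from the mean of its own group (colour scale) for each of the 38 genes (rows) in the 6 libraries (columns, ordered by replicate number), with orange above and purple below the mean. The replicate 3 columns of both groups are purple in most rows and dark orange for FADS3.

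The surrounding pathway was followed in 63 further genes, of which 58 passed the count filter. Without the block 0 of them passed in either direction in edgeR, with 9 higher and 4 lower at an unadjusted p below 0.05, and the DESeq2 Wald test called 3 higher and 1 lower. In the blocked fit 20 rose and 7 fell, or 34.5% and 12.1%, where it called 17.1% of all tested genes higher and 16.2% lower, and their median unblocked log2 fold change was 0.09. The median level of these 58 genes was 48.8 CPM, and of all genes with a mean of at least 50 CPM the blocked fit called 24.7% higher and 29.1% lower. Among the other sterol synthesis genes, TM7SF2, a sterol C14 reductase, went from 68.4, 66.9 and 61.9 CPM to 91.8, 104 and 84.3 CPM (blocked fit, 0.50, adjusted p = 2.62e-09). ERG28, a scaffold of the C4 demethylation that MSMO1 begins, rose by 0.23 (adjusted p = 0.00167), and GGPS1 and AACS rose too, AACS without a call after the GC and length correction (0.08, adjusted p = 0.165), while PDSS1, which builds the side chain of coenzyme Q, fell (-0.61, adjusted p = 3.11e-06). Of 6 genes that process SREBPs or degrade their partners, 2 rose and 0 fell in the blocked fit, among them ERLIN2, part of an endoplasmic reticulum complex (0.19, adjusted p = 0.00309, and 0.0540 with the GC and length correction).

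Of 13 genes of sterol uptake, efflux and storage, 3 rose and 3 fell in the blocked fit, 23.1% each way, which is near the shares of all tested genes (17.1% and 16.2%). ABCA1, the cholesterol efflux pump that sterol-sensing nuclear receptors induce, went from 0.773, 0.886 and 0.549 CPM to 3.27, 3.57 and 2.13 CPM, on 9 to 61 counts per library. This was a log2 fold change of 2.01 ± 0.35 (SE) with adjusted p = 0.0537 unblocked and 6.6e-06 blocked. SOAT1, which esterifies cholesterol for storage, rose in the blocked fit (0.30, adjusted p = 9.61e-06), as did MYLIP, a ligase that marks lipoprotein receptors for degradation. SCARB1, the receptor for high-density lipoprotein, fell (-0.29, adjusted p = 3.8e-07), with OSBPL3 and LIPA.

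Of the other fatty acid synthesis genes, 11 were tested, and 2 rose and 2 fell in the blocked fit, 18.2% each way, about the shares of all tested genes. ACACB, whose malonyl-CoA restrains entry of fatty acids into mitochondria, went from 39.6, 30.3 and 34.0 CPM to 53.7, 44.1 and 50.1 CPM (0.51, adjusted p = 1.72e-07), and HACD2, a dehydratase of the elongation cycle, fell (-0.25, adjusted p = 3.3e-05). ELOVL4 rose and ME1 fell in the same fit. Of 10 genes of activation and glycerolipid synthesis, ACSL5, LPIN2 and LPIN3 rose and ACSL4, which prefers arachidonate, fell, 30.0% and 10.0% of the list. ACSL5 had the largest fold change of these (1.23, adjusted p = 0.0236) on 6 to 30 counts per library, and LPIN2, a relative of LPIN1, rose by 0.51 (adjusted p = 8.88e-05). In fatty acid oxidation, 6 of 11 genes rose in the blocked fit (54.5%, against 17.1% of all tested genes) and 0 fell (against 16.2%), and 10 of 11 were higher in every pair, where 30.6% of all tested genes were. The median level of this list was 71.2 CPM. Of all genes with a mean of at least 50 CPM, 24.7% rose and 29.1% fell in the blocked fit, and 34.6% were higher in every pair. DECR1, which prepares unsaturated chains for oxidation, went from 41.3, 46.6 and 41.6 CPM to 50.8, 61.0 and 56.3 CPM (0.38, adjusted p = 1.35e-05). CPT1A and CPT2, which carry acyl chains into mitochondria, and HADHA and HADHB, the subunits of the trifunctional protein of mitochondrial oxidation, rose by 0.13 to 0.26 in the blocked fit.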

How the data were processed

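Strand-specific libraries of poly(A) RNA from 6 samples were sequenced by a service provider, and groups and replicate numbers came from the labels. The authors aligned and counted reads with Rsubread on GRCh38.p13 with a Gencode annotation, and deposited raw counts per gene (62703 genes). The Rsubread version, how multi-mapping reads were treated and whether counting was stranded are not given in the sources used here. The deposited log2 CPM values (17901 genes) differed by at most 4.96e-09 from log2 CPM computed here from the counts with TMM and a prior count of 2.

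Counts were tested with edgeR 4.0.16 (R 4.3.3): genes kept by its expression filter, TMM scaling, quasi-likelihood F-test over all 17901 genes, two-sided, Benjamini-Hochberg adjustment, threshold 0.05. The study's methods name edgeR and no blocking term, so the primary fit held the treatment only. A figure legend of the study does call its heatmap of androgen response genes in these cells batch-corrected. What the batch was, and whether the study's edgeR test used it, is not stated there. Both groups carry the replicate numbers 1 to 3 in the labels. Same-numbered libraries deviated together from their group means (correlations over genes of 0.532, 0.373 and 0.643, against -0.460 to -0.0233 for unlike numbers). Because deviations within a group cancel out, positive values for like numbers force lower values for unlike ones. The values for unlike numbers are therefore no separate evidence. The pairing was read from these correlations, and a blocked fit on the number is given beside the primary one. It lowered the common dispersion from 0.0368 to 0.00228. Libraries of a group were not duplicates (chi-square per degree of freedom 10.3 to 40.7).

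The 38 members, the branches, the pathway lists, the markers and the rule for named genes were chosen with earlier results of these data known. The rule named all members, MED12, and pathway genes past the threshold with or without the block, with library values for members called without the block or with a blocked log2 fold change of at least 0.4 in size. A few pathway genes are left unreported here. Further genes were given library values after their values had been seen. Each SE was the fold change divided by the square root of F. Exon lengths, overlaps and coordinates are from Gencode 44 (GRCh38), and promoter windows are from RefSeq (GRCh38.p14). Alternatives were DESeq2 size factors and its Wald test (1.42.0), limma-trend (3.58.1), library size only, other filters, leaving out each library, and, within the block, other scalings, a loess correction (span 0.5) for GC content and length over 17897 genes and, chosen after seeing the data, leaving out each pair. The procedure was tested on simulated counts. That simulation planted changes larger than those of any member, and its replicate effects were the same in both groups. It therefore does not show how the fits perform on changes of the size seen here.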

Additional observations from a re-analysis of the deposited data

How the results depend on the processing

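With the replicate number as a block, members called higher and lower went from 0 and 1 to 5 and 15, further pathway genes from 0 and 0 to 20 and 7, and all genes from 27 and 74 to 3058 and 2908. Other blocked fits gave 7 and 14 members, 26 and 5 pathway genes and 3807 and 2413 genes with library size only, 5 and 15, 20 and 8, and 2960 and 3069 with DESeq2 size factors, and 4 and 17, 20 and 7, and 2651 and 3190 with the GC and length correction. Leaving out both libraries of a number (chosen after seeing the data) gave 2 and 15 members, 14 and 6 pathway genes and 2070 and 2578 genes without replicate 1, 4 and 17, 15 and 5, and 2199 and 2654 without replicate 2, and 3 and 12, 17 and 6, and 2375 and 2579 without replicate 3. Without the block, genes called higher and lower were 186 and 290 with no filter (2 members lower, 2 pathway genes higher) and 331 and 493 by the Wald test (2 members lower, 3 pathway genes higher and 1 lower), genes lower were 118 under the filter at a mean of 1 CPM (1 pathway gene higher) and 49 with library size only. Leaving out single libraries gave 0 to 8 genes higher, 0 to 37 lower, 0 members, and MED12 between -1.90 and -1.45, past the threshold in 2 of 6 fits.

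The median of the sterol branch was -0.0370 with library size only (-0.0361 blocked), -0.12 in the blocked fit without replicate 2, and -0.13 to 0.00358 without single libraries. The regulator median was -0.00953 with library size only (-0.0118 blocked), -0.0886 in the blocked fit without replicate 2, and -0.15 to 0.0107 without single libraries. The fatty acid median without single libraries was -0.21 to -0.14. Library size only moved the median of all genes to 0.06.

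Changes of sign were confined, among the settings run, to members that passed in neither fit, except HMGCS1. ELOVL1 became -0.0044 by the Wald test and -0.0044 with DESeq2 size factors (-0.0049 with the block), -0.0140 under the 1 CPM filter, -0.0015, -0.0184 and -0.0144 in blocked fits without replicates 1, 2 and 3, and -0.0467 to 0.0380 without single libraries. ACLY became 0.0085 with library size only and 0.0081 with the block, and ACACA 0.00034 with the latter. PMVK became 0.0156 with the GC and length correction, and without replicate 2 in the blocked fit ACAT2 became -0.0117 and MVK -0.0023. Without single libraries, ranges were -0.14 to 0.0612 (ACLY), -0.17 to 0.0732 (ACACA), -0.17 to 0.0223 (PMVK), -0.0857 to 0.25 (MVK), -0.15 to 0.0107 (SREBF2), -0.25 to 0.00843 (HMGCS1), -0.14 to 0.00358 (NSDHL), -0.0124 to 0.17 (STARD4), -0.0196 to 0.22 (ACSS2) and -0.49 to 0.20 (FADS3). The cause was not tested. Member counts ran from 104 (INSIG2) to 36237 (FASN) per library, so that counting error is largest for INSIG2. Of 722 values for members under other settings, 553 kept direction and call. The primary fit called FADS1 alone, so most of these were uncalled in both. Another 130 kept direction and were called only under the other setting, 33 changed direction and 6 kept direction but lost the call.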
